A study of Oryctolagus cuniculus with 6 samples.

Results

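The genes described here are 10 transcription factors and cofactors that set the state of the Schwann cell, the glial cell of peripheral nerve. They were picked by gene symbol, and all 10 were found among the 17396 genes of the rabbit facial nerve count files and passed the filter on low counts. The promyelin set holds 8 of them, SOX10, EGR2, POU3F1, POU3F2, NAB1, NAB2, ZEB2 and TEAD1, and the injury set holds JUN and SOX2. Facial nerve RNA had been sequenced in a facial nerve injury (FNI) group and an FNI+I-125 group of 3 rabbits each, with 1 library per rabbit. All 6 animals were wild type male Japanese white rabbits aged 3 to 4 months in which the main trunk of the facial nerve had been cut, and all nerves were taken on day 14. In the FNI+I-125 group, an iodine-125 brachytherapy seed of 0.8 mCi had been placed close to the nerve when the skin was closed, while the FNI group received no seed. No uninjured nerve was analysed here, so every value compares injured nerve with a seed to injured nerve without.

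SOX10 is required throughout the life of a Schwann cell and acts at the regulatory elements of most myelin genes. In development it works with POU3F1 (also called OCT6 or SCIP) and POU3F2 (BRN2) to switch on EGR2 (KROX20), the factor that starts and maintains myelination. NAB1 and NAB2 bind EGR proteins and are needed for EGR2 to act, ZEB2 represses inhibitors of myelination, and TEAD1 carries the coactivators YAP and TAZ to myelin and lipid genes. After nerve injury, Schwann cells lose EGR2 and raise JUN, the AP-1 factor that drives the repair Schwann cell, and SOX2, a factor of the immature Schwann cell that holds myelination back. JUN, ZEB2, TEAD1 and the NAB genes are also expressed by other cells of a nerve sample, and SOX10 and SOX2 by gland and other epithelium.

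Total counts ran from 16031151 to 16798012 per library. The labelled tissue was checked by 12 Schwann cell markers, all of which had counts in the tested range. Their summed level was 4044 to 28370 CPM (counts of a gene relative to all counts of its library, scaled by edgeR's TMM method) in the FNI libraries and 819 to 3579 CPM in FNI+I-125 nerves. Several libraries stood apart. FNI replicate 3 held 46745 CPM of the 24 myelin target genes listed for this work, against 985 to 8548 CPM in the other 5 libraries. The salivary gland list reached 49896 CPM in FNI replicate 2, where DNASE1 alone took 4.54% of the counts. Skeletal muscle genes summed to 5879 and 5474 CPM in FNI+I-125 replicates 1 and 2 and to 57.9 to 183 CPM elsewhere. Keratinocyte genes summed to 1188 CPM in FNI+I-125 replicate 3 and 719 CPM in FNI replicate 1, and to 13.4 to 84.2 CPM in the others. In these bulk samples, fewer Schwann cells and less RNA per Schwann cell cannot be told apart.

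Compared to the FNI group, 7 of the 8 promyelin factors had a negative log2 fold change after seed implantation, as did 48.9% of all tested genes, while ZEB2, JUN and SOX2 had a positive one. POU3F2 showed the largest difference of the 10, with a level 4.01-fold lower, and SOX10 and POU3F2 were the members for which the groups did not overlap. Differences were tested by the quasi-likelihood method of edgeR, with Benjamini-Hochberg adjustment over the 14003 genes that passed the filter. At an adjusted p under 0.05, 0 of the 10 members and 0% of all tested genes were called. At an unadjusted p under 0.05, 1 member was called, POU3F2, which was lower, beside 17.0% of all tested genes, 7.73% lower and 9.23% higher. With DESeq2, an adjusted p under 0.05 was reached by POU3F2 alone among the members, beside 6.48% of the genes with an adjusted p in that test. Values that were lower and did not overlap between the groups belonged to 2 of 10 members and 12.3% of all tested genes, and higher values without overlap to 0 members and 14.8% of all tested genes, so that in either direction 2 members stood beside 27.2%. These shares are close to the background, so the counts do not set the members apart from other genes.

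**Figure D1:**
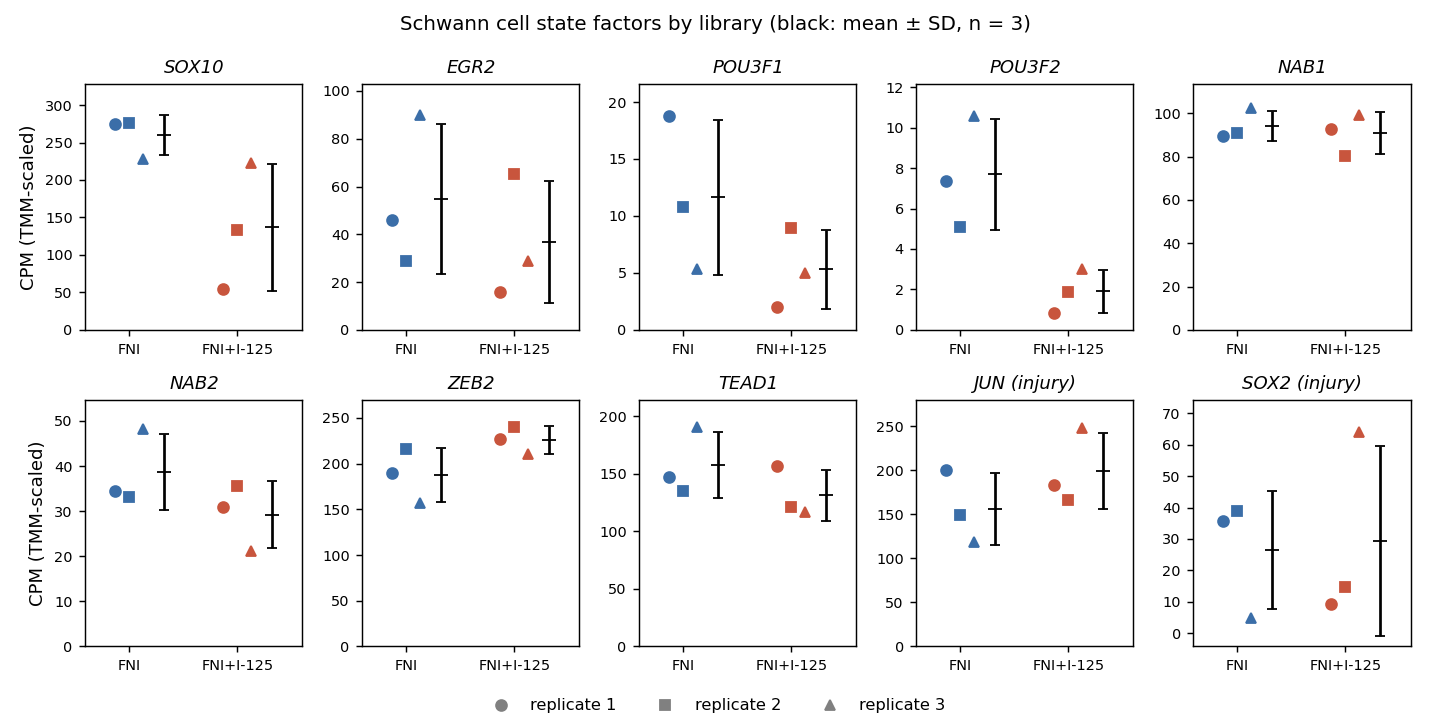
Level of each of the 10 factors in every library, in TMM-scaled CPM on a linear axis, with blue symbols for the FNI group, red symbols for the FNI+I-125 group, symbol shapes for replicates 1 to 3, and a black bar for mean ± SD (n = 3). The groups separate for SOX10 and POU3F2, whereas FNI replicate 3 sits highest for EGR2 and lowest for SOX2.

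SOX10, the lineage factor, stood at 275, 276 and 229 CPM in FNI replicates 1, 2 and 3 and at 54.4, 133 and 222 CPM in FNI+I-125 replicates 1, 2 and 3. The FNI libraries were close together, whereas the FNI+I-125 libraries spread over a 4.09-fold range. The highest FNI+I-125 library nearly reached the lowest FNI library. Gland epithelium also expresses SOX10. The salivary gland list summed to 3198, 49896 and 43.7 CPM in the FNI libraries and to 667, 54.5 and 469 CPM in FNI+I-125 nerves. The part of gland in the level of SOX10 was not tested. SOX10 averaged 260 ± 27.1 CPM without and 137 ± 84.1 CPM with a seed (SD, n = 3 each). The log2 fold change was -0.93, with a standard error of 0.48 and an edgeR adjusted p of 0.344. Although the groups did not overlap, the 95% interval of the log2 fold change ran from -2.10 to 0.25. Without FNI+I-125 replicate 1, the lowest library, the log2 fold change of SOX10 was -0.55, and without FNI+I-125 replicate 3 it was -1.47, with an unadjusted p of 0.017 (edgeR, adjusted p = 0.306), a p under 0.05 that 14.8% of the genes tested without this library reached.

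POU3F2, a POU domain factor of the promyelinating stage, was counted 126, 81 and 179 times without a seed (FNI replicates 1 to 3) and 13, 31 and 51 times with one. This corresponds to 7.38, 5.10 and 10.6 CPM against 0.850, 1.89 and 2.99 CPM. All seed-implanted nerves had less POU3F2 than any nerve without a seed, and the group means were 7.69 ± 2.75 and 1.91 ± 1.07 CPM (SD, n = 3 each). The estimated log2 fold change was -2.0 with a standard error of 0.53 and a 95% interval of -3.30 to -0.70 (edgeR, unadjusted p = 0.00939, adjusted p = 0.280). DESeq2 gave a log2 fold change of -2.02 with an adjusted p of 0.0140. POU3F2 was in position 416 of the 14003 genes when ranked by p-value. With each library left out in turn, its log2 fold change stayed between -2.49 and -1.65 and its unadjusted p under 0.05, as was the p of 9.70% to 15.5% of the genes tested in these fits. An exact permutation test of log2(CPM + 1) gave p = 0.1 for POU3F2 and for SOX10, the smallest p that 3 rabbits against 3 allow.

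POU3F1, the paralogous POU factor and a marker of the promyelinating Schwann cell, did not separate the groups. Its level was 18.8, 10.8 and 5.32 CPM in the FNI libraries and 2.03, 8.95 and 4.99 CPM in FNI+I-125 nerves. FNI+I-125 replicate 2 lay above FNI replicate 3, and the log2 fold change was -1.13 (standard error 0.66, 95% interval -2.75 to 0.50, edgeR adjusted p = 0.388). Within the FNI group the POU factors went different ways, since replicate 3 had the lowest POU3F1 and the highest POU3F2. The log2 ratio of POU3F2 to POU3F1 in that library was 1.47 above the mean of the FNI group, and in the other 5 libraries it was below that mean. The fold change of POU3F1 moved to -0.60 without FNI replicate 1 and to -1.76 without FNI+I-125 replicate 2.

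EGR2, the master factor of myelination, stood at 46.0, 28.8 and 89.8 CPM in the FNI group and at 16.0, 65.2 and 28.7 CPM in FNI+I-125 nerves. The groups overlapped widely, because FNI+I-125 replicate 2 exceeded FNI replicates 1 and 2. The log2 fold change of EGR2 was -0.58 (standard error 0.62, edgeR adjusted p = 0.625), and its 95% interval, -2.11 to 0.95, includes differences of either sign. Its log2 fold change moved to -0.04 without FNI replicate 3, to -0.22 without FNI+I-125 replicate 1, and to -1.32 without FNI+I-125 replicate 2.

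The EGR cofactors varied far less. NAB1 stood at 89.5, 91.0 and 102 CPM in the FNI group and at 92.9, 80.1 and 99.4 CPM in FNI+I-125 nerves. The log2 fold change of NAB1 was -0.05, with a standard error of 0.13, and the 95% interval, -0.37 to 0.26, leaves room for small differences only. NAB2, which EGR factors induce in many cells, stood at 34.4, 33.1 and 48.3 CPM against 30.9, 35.6 and 21.1 CPM. FNI+I-125 replicate 2 lay above FNI replicates 1 and 2, and the log2 fold change of NAB2 was -0.40 (standard error 0.25, edgeR adjusted p = 0.412). It was -0.22 without FNI replicate 3 and also without FNI+I-125 replicate 3. NAB2 and EGR2 shared their highest library, FNI replicate 3, but not their lowest, which was FNI+I-125 replicate 3 for NAB2 and FNI+I-125 replicate 1 for EGR2.

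TEAD1, the DNA-binding partner of YAP and TAZ, stood at 147, 135 and 190 CPM in the FNI group and at 156, 121 and 117 CPM in FNI+I-125 nerves. The groups overlapped, and edgeR estimated a log2 fold change of -0.26 ± 0.19 (standard error), with an adjusted p of 0.472. This estimate was -0.12 without FNI replicate 3 and -0.41 without FNI+I-125 replicate 1. ZEB2, the only promyelin factor with higher values after seed implantation, stood at 190, 216 and 156 CPM against 227, 240 and 210 CPM. FNI+I-125 replicate 3 fell just below FNI replicate 2, and the log2 fold change of ZEB2 was 0.27 (standard error 0.16, edgeR adjusted p = 0.389). Without FNI replicate 3 it was 0.13. Scaled by library size alone, the ZEB2 groups no longer overlapped. Macrophages also express ZEB2, and their 11 listed markers summed to 323 to 1193 CPM in the FNI libraries and to 1447 to 2286 CPM in FNI+I-125 nerves. All 11 macrophage markers had a positive log2 fold change, and 8 of them were higher without overlap, beside 14.8% of all tested genes. In level the list was led by CSF1R, the receptor for macrophage colony-stimulating factor, and CD68, a lysosomal glycoprotein. The part of macrophages in the level of ZEB2 was not tested.

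JUN, which directs the repair program of the injured Schwann cell, stood at 200, 150 and 118 CPM in the FNI group and at 184, 166 and 248 CPM in FNI+I-125 nerves. FNI replicate 1 lay above FNI+I-125 replicates 1 and 2, so the groups overlapped. JUN averaged 156 ± 41.2 and 199 ± 43.0 CPM (SD, n = 3 each), and its log2 fold change was 0.35 (standard error 0.25, 95% interval -0.26 to 0.97, edgeR adjusted p = 0.464). The log2 fold change of JUN moved to 0.16 without FNI replicate 3, to 0.15 without FNI+I-125 replicate 3, and to 0.57 without FNI replicate 1.

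SOX2 varied most among the members, with 35.6, 38.7 and 4.91 CPM in the FNI libraries and 9.15, 14.7 and 64.2 CPM in FNI+I-125 nerves. Replicate 3 was far below the others of the FNI group and far above the others of the FNI+I-125 group, so both extremes of all 6 libraries came from replicates numbered 3. Its pooled SD within the groups was 1.48 on the log2(CPM + 1) scale, against a median of 0.273 over all tested genes and 0.133 for NAB1. The log2 fold change of SOX2 was 0.15 (standard error 0.98, 95% interval -2.24 to 2.55, edgeR adjusted p = 0.944). Its direction turned when either replicate 3 was left out, to -0.37 without FNI replicate 3 and to -1.15 without FNI+I-125 replicate 3. Epithelial cells also express SOX2. The 3 libraries with the most SOX2, FNI+I-125 replicate 3 and FNI replicates 1 and 2, were those with the most keratinocyte transcripts, and 2 of the 3 had the most salivary gland transcripts. The part of epithelium in the level of SOX2 was not tested.

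**Figure D2:**
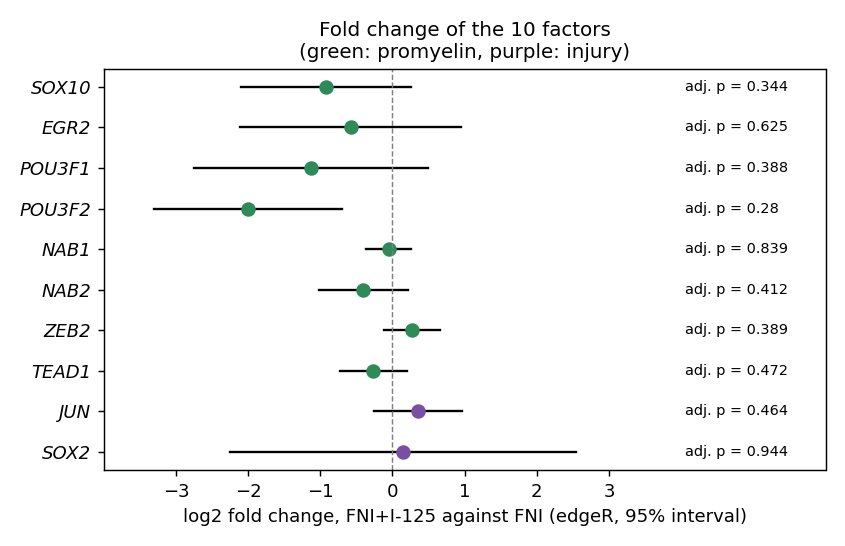
Log2 fold change of each factor, FNI+I-125 against FNI, with points for edgeR's estimate, lines for the 95% interval, green for promyelin and purple for injury factors, and the adjusted p at the right. The interval of POU3F2, from -3.30 to -0.70, is the one that does not include 0, and that of SOX2 is the widest.

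The promyelin and injury sets were next compared within each library. The mean log2(CPM + 1) of the 8 promyelin factors was 5.93, 5.71 and 5.97 in the FNI libraries and 4.88, 5.54 and 5.37 in FNI+I-125 nerves. All 3 seed-implanted libraries thus lay below the FNI libraries. SOX10 and POU3F2 enter this mean, and of the 8 factors only these 2 were lower without overlap on their own. For JUN and SOX2 the mean was 6.42, 6.27 and 4.73 in the FNI libraries and 5.44, 5.68 and 6.99 in FNI+I-125 nerves, and these ranges overlapped. The promyelin mean minus the injury mean was -0.49, -0.57 and 1.24 in the FNI libraries and -0.55, -0.13 and -1.62 in FNI+I-125 nerves. Since transcript lengths differ between genes, only differences of this balance between libraries can be read. It averaged 0.06 ± 1.02 without and -0.77 ± 0.76 with a seed (SD, n = 3 each), a difference of -0.83 that is smaller than the SD within the FNI group. The balance was set apart by replicate 3 of each group, in opposite directions, and the other 4 libraries lay within -0.57 to -0.13. Without FNI replicate 3 the difference of the group means was -0.24, and without FNI+I-125 replicate 3 it was -0.40. With JUN alone as the injury factor, the balance averaged -1.39 ± 0.41 without and -2.36 ± 0.45 with a seed, a difference of -0.96. With SOX2 alone it averaged 1.51 ± 1.65 and 0.82 ± 1.27, a difference of -0.69, so the wide spread came with SOX2. As the members were chosen with results of these data known, no p-value is given for these scores.

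FNI replicate 3 held the highest value of the 6 libraries for 5 members, EGR2, POU3F2, NAB1, NAB2 and TEAD1, and the lowest for ZEB2, JUN and SOX2. It was also the library with the most transcripts of the myelin target list, as given above. FNI+I-125 replicate 3 was the opposite case, with the highest JUN and SOX2 and the lowest NAB2 and TEAD1. Its SOX10, however, was the highest of the FNI+I-125 group. FNI+I-125 replicate 1 had the lowest SOX10, EGR2, POU3F1 and POU3F2 of all libraries, and its JUN, 184 CPM, lay between those of FNI replicates 1 and 2.

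**Figure D3:**
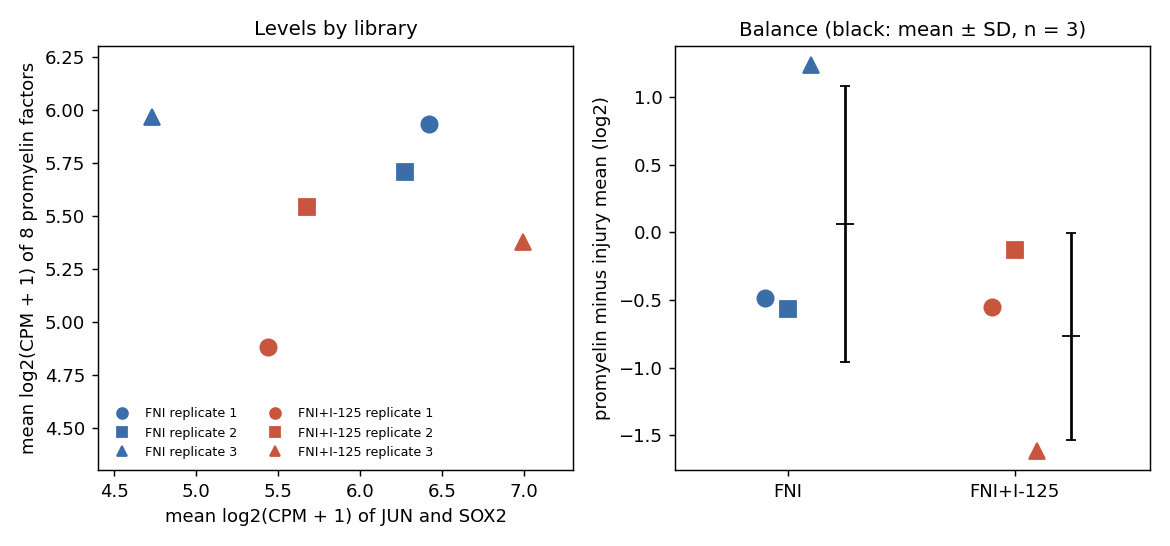
Left, mean log2(CPM + 1) of the 8 promyelin factors against that of JUN and SOX2, 1 symbol per library. Right, the difference of both means by group with mean ± SD in black (n = 3), where FNI replicate 3, at 1.24, and FNI+I-125 replicate 3, at -1.62, stand apart from the other 4 libraries.

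Ratios to SOX10 within a library set a factor against a Schwann lineage transcript and do not depend on the scaling of the libraries. Other cells also express JUN and ZEB2, and gland and other epithelium SOX10, so these ratios are not levels per Schwann cell. Each is given as log2 relative to the mean of the FNI group. POU3F2 relative to SOX10 was -0.08, -0.62 and 0.70 in the FNI libraries and -0.86, -1.0 and -1.08 in FNI+I-125 nerves, so POU3F2 was lower in the seed-implanted nerves also per SOX10 transcript. JUN relative to SOX10 was 0.31, -0.12 and -0.19 against 2.52, 1.08 and 0.92, and ZEB2 relative to SOX10 was -0.05, 0.12 and -0.07 against 2.54, 1.33 and 0.40. For both of these genes the FNI+I-125 libraries lay above the FNI libraries, and the lower SOX10 of the FNI+I-125 group enters both ratios. EGR2 relative to SOX10 was -0.18, -0.87 and 1.05 against 0.63, 1.37 and -0.56, and POU3F1 relative to SOX10 was 0.79, -0.02 and -0.77 against -0.09, 0.76 and -0.82. Neither of these ratios separated the groups. SOX2 relative to SOX10 was 0.83, 0.94 and -1.77 against 1.20, 0.59 and 1.98, and overlapped as well. Of the 14 ratios computed among the members, 3 did not overlap between the groups, each with p = 0.1 in the exact permutation test, two-sided, and 0.467 after Benjamini-Hochberg adjustment over the 14.

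**Figure D4:**
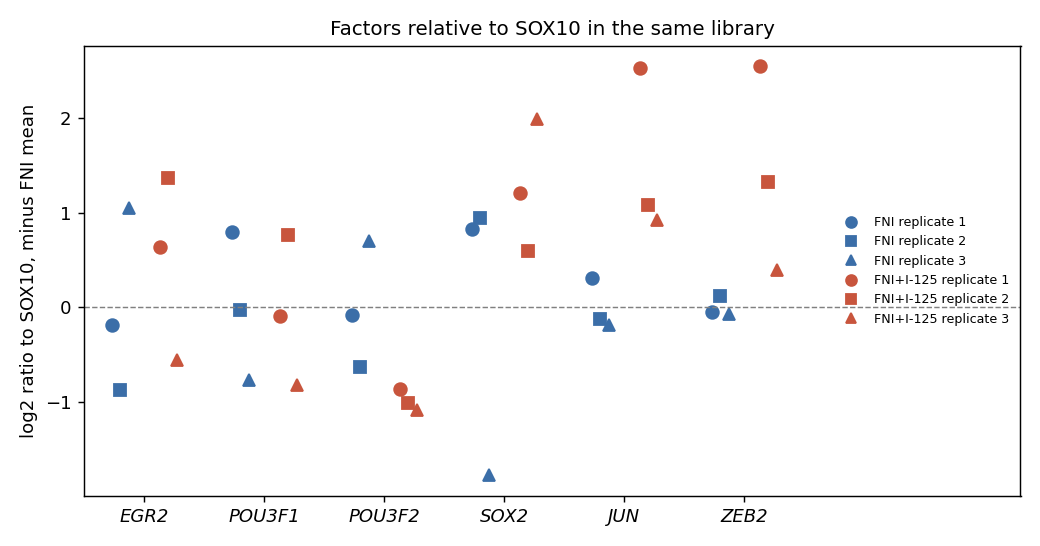
Log2 ratio of 6 factors to SOX10 in the same library, each centred on the mean of the FNI group (dashed line at 0), with blue for FNI, red for FNI+I-125 and shapes for replicates. The FNI+I-125 libraries lie below the FNI libraries for POU3F2 and above them for JUN and ZEB2.

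Partners of the factors were described from lists written from general knowledge. Among promyelin cofactors, 17 genes were tested, 8 with lower and 9 with higher values after seed implantation, and their log2 fold changes had a median of 0.04, against 0.01 over all tested genes. With each library left out this median lay between -0.03 and 0.09. SREBF2, a regulator of cholesterol synthesis, was the member with an unadjusted p under 0.05 (log2 fold change -0.51, standard error 0.20, edgeR adjusted p = 0.290). SMARCA4, the ATPase of the BAF chromatin remodelling complex, had a log2 fold change of 0.37 and TEAD4, a paralog of TEAD1, of 0.45, and both overlapped between the groups. The list of brakes on myelination held 11 tested genes, 6 higher and 5 lower, of which 0 had an unadjusted p under 0.05 or groups without overlap. Its smallest p-values belonged to HES1, an effector of Notch (log2 fold change -0.49), EDNRB, the endothelin B receptor (-0.48), and EGR1, an immediate early factor that is high in immature Schwann cells (0.97).

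Partners of JUN in AP-1 were described in the same way. All 9 tested genes of this list had a positive log2 fold change, with a median of 1.35, although 1 of the 9 was negative when scaled by library size alone or by upper quartiles, and likewise without FNI replicate 1 or FNI+I-125 replicate 1. The values of ATF2 (0.02) and ATF4 (0.25) were smaller than that of JUN, and the difference between the list and JUN was not tested. The median was 0.80 without FNI replicate 3 and 0.77 without FNI+I-125 replicate 1. The list summed to 340 to 622 CPM in the FNI libraries and to 753 to 1469 CPM in FNI+I-125 nerves. FOS, the classic partner of JUN, stood at 78.1, 54.1 and 61.3 CPM against 524, 52.8 and 207 CPM. FNI+I-125 replicate 2 had less FOS than any FNI library, while the other seed-implanted libraries lay well above them. FOS (log2 fold change 2.02, standard error 0.77), FOSB (2.12, standard error 0.86) and FOSL1 (1.96, standard error 0.74) had an unadjusted p under 0.05 and an adjusted p of 0.283 to 0.293 in the edgeR test, and all 3 overlapped between the groups, whereas BATF (1.35) and MAFF (0.75) did not. Of all tested genes, 9.23% were higher at an unadjusted p under 0.05 and 14.8% were higher without overlap. Without FNI replicate 2 or without FNI replicate 3, 0 of the 9 genes had an unadjusted p under 0.05, and without FNI+I-125 replicate 1 it was 1. Of all genes tested in these fits, 15.5%, 11.5% and 9.70% had such a p, in either direction. AP-1 genes are expressed by many cell types. Macrophage markers were also higher in the FNI+I-125 group, as given above, with 1887, 2286 and 1447 CPM in FNI+I-125 replicates 1 to 3. Neutrophil genes summed to 1203, 33.2 and 81.8 CPM in these libraries and to 6.62 to 77.4 CPM in the FNI group. The part of either cell type in the AP-1 levels was not tested.

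In the pathway of JNK, the kinase that activates JUN, 7 of 12 tested genes were lower and 5 higher, with a median log2 fold change of -0.18, or -0.08 without FNI replicate 3. Of the 12 genes, 5 were lower without overlap, beside 12.3% of all tested genes. Among these were MAP3K1 (log2 fold change -0.40, standard error 0.13) and the scaffold gene MAPK8IP1 (-1.89, standard error 0.77). MAPK8IP1 was highest in FNI replicate 3, with 234 CPM against 18.0 to 46.2 CPM in the other libraries. DUSP1, a phosphatase that switches JNK off, had a log2 fold change of 1.34 (standard error 0.54), and its groups overlapped. All 3 had an unadjusted p under 0.05 and an adjusted p of 0.280 to 0.294 (edgeR). Of all tested genes, 17.0% had such an unadjusted p.

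Of 16 tested genes of the repair Schwann cell, many of them targets of JUN, 10 were higher and 6 lower, with a median log2 fold change of 0.20. SHH, a signalling protein induced by JUN after injury, had lower values, on 6 to 136 counts per library. It stood at 4.33, 2.02 and 8.04 CPM in the FNI group and at 1.11, 1.89 and 0.352 CPM in FNI+I-125 nerves. The log2 fold change was -2.10 (standard error 0.76, edgeR adjusted p = 0.280). The groups did not overlap, but FNI replicate 2, with 32 counts, and FNI+I-125 replicate 2, with 31, nearly met. GFAP, an intermediate filament of repair and non-myelinating Schwann cells, had a log2 fold change of -1.23, and LIF, a cytokine, of 1.17, and the groups overlapped for both. Without FNI+I-125 replicate 3, 13 of the 16 genes were lower and the median was -0.43, and without FNI replicate 3 the median was -0.03, so the direction of this list rested on these libraries.

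The myelin targets of SOX10 and EGR2 were all lower after seed implantation in their estimates, though not in every library. All 24 tested genes had a negative log2 fold change, with a median of -3.15, against -0.49 for the 8 promyelin factors. In this list, 17 genes had an unadjusted p under 0.05 and 14 were lower without overlap between the groups. Of all tested genes, 7.73% were lower at that p and 12.3% were lower without overlap. With edgeR 0 of the 24 and with DESeq2 13 of them passed an adjusted p of 0.05, beside 0% and 6.48% of the genes in these tests. GJB1, the gap junction protein of Schwann cell incisures and a direct target of both factors, stood at 13.1, 18.4 and 55.6 CPM against 1.37, 4.75 and 4.17 CPM (log2 fold change -3.08, standard error 0.74, edgeR adjusted p = 0.280). UGT8, which makes the myelin lipid galactosylceramide, had a log2 fold change of -3.46 (standard error 1.04), and CADM4, an adhesion molecule of the internode, of -3.06 (standard error 0.94). Both were highest in FNI replicate 3, with 441 and 474 CPM, and both were lower without overlap. Without FNI replicate 3 the median of the list was -1.51, while the median of the 8 promyelin factors was -0.17. In that fit 4 of the 24 genes had an unadjusted p under 0.05, beside 11.5% of all genes tested, in either direction. Without FNI+I-125 replicate 2 the median of the factors was -0.77. Without FNI+I-125 replicate 1 or 3 the medians of the list were -2.80 and -3.06, and all 24 genes stayed lower. In these fits 1 and 3 of the 24 had such a p, beside 9.70% and 14.8% of all genes tested, in either direction.

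Among the inputs that act upstream of the factors, 10 of 13 tested genes were lower, with a median log2 fold change of -0.24. LAMA2, the laminin chain of the Schwann cell basal lamina, stood at 409, 344 and 480 CPM in the FNI group and at 168, 265 and 226 CPM in FNI+I-125 nerves, without overlap (log2 fold change -0.91, standard error 0.22, edgeR adjusted p = 0.280). ITGA6, a laminin receptor subunit, was lower without overlap (-0.96, standard error 0.34), whereas ERBB2, the coreceptor for neuregulin (-0.73, standard error 0.24), overlapped. All 3 had an unadjusted p under 0.05, while 7.73% of all tested genes were lower at that p. The count was 1 without FNI replicate 3, FNI+I-125 replicate 1 or FNI+I-125 replicate 2 and 6 without FNI+I-125 replicate 3. Of the genes tested in these fits, 9.70% to 14.8% had such a p in either direction.

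**Figure D5:**
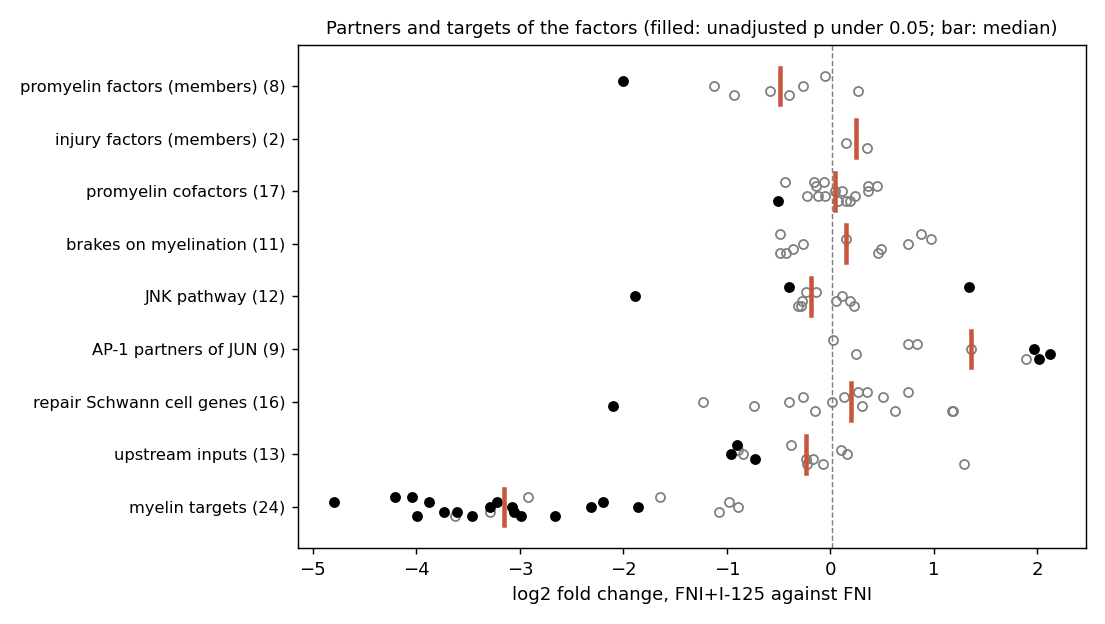
Log2 fold change, FNI+I-125 against FNI, of every tested gene of 9 lists, with the number of genes in brackets, filled symbols for an unadjusted p under 0.05 in edgeR's test, red bars for the list medians and a dashed line for the median of all tested genes. The myelin targets, with a median of -3.15, stand beside the promyelin factors, at -0.49, and the median of the AP-1 partners is 1.35.

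The genes with the profile most like a member were found by the root mean square difference of log2(CPM + 1), centred on each gene's own mean, over the 6 libraries and all tested genes. Nearest to SOX10 were GFRA1, a receptor for glial cell line-derived neurotrophic factor (difference 0.08), PLXDC1 (0.13) and LOC103350276 (0.17), against a median of 0.87 over all tested genes. GFRA1 stood at 163, 168 and 135 CPM in the FNI group and at 29.7, 87.0 and 140 CPM in FNI+I-125 nerves, following the order of SOX10 in both groups with FNI+I-125 replicate 3 just above FNI replicate 3. Nearest to EGR2 were CCDC3 (0.10), STYXL1 (0.21) and OASL (0.26), against a median of 0.85. Nearest to JUN were LRR1 (0.02), TGIF1 (0.03) and ZC2HC1C (0.06), against a median of 0.44.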

How the data were processed

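The authors extracted total RNA, built stranded mRNA libraries, sequenced them with Illumina HiSeq instruments and deposited the raw counts of each library in a file of its own, as whole numbers that were not normalized. The submitters' processing notes name HISAT2 and the rabbit build OryCun2.0. The counting program, its annotation and its use of strand are not given in the sources used here, so how reads shared by paralogs such as POU3F1 and POU3F2 were assigned is unknown. The RefSeq gene table at hand is of assembly mOryCun1.1, so no coordinates or sequences are given. It gave a symbol to 542 of 2992 LOC numbers. In addition, 25 gene names had turned into spreadsheet dates.

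The main test was that of edgeR 4.0.16, run under R 4.3.3 (TMM, filterByExpr with a minimum count of 10, glmQLFit and glmQLFTest with default settings, two-sided, Benjamini-Hochberg over 14003 genes). Standard errors were the log2 fold change divided by the square root of F. CPM are scaled with the TMM factors, which ran from 0.923 to 1.06. Exact permutation tests used log2(CPM + 1) and all 20 assignments of the libraries. No member was at 0 in any library. Groups and replicate numbers come from the labels. The alternatives were DESeq2 1.42.0, limma-voom (limma 3.58.1), glmQLFit with legacy = FALSE, 3 other scalings, 2 other filters, a prior count of 2, a replicate block, a log2 fold change threshold of 1.5 and leaving out each library. Their use on the myelin and AP-1 lists was added after values were seen. The fits were tested on simulated data.

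The members and lists were chosen with earlier results of these data known. Named beside the members are the 3 genes with the smallest p-value of each partner list, the 2 genes with the highest mean CPM of marker lists, and the 3 nearest profiles to SOX10, EGR2 and JUN. DNASE1 and the libraries that stand apart are named after values were seen. Some genes of the marker lists are not reported here by name.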

Additional observations from a re-analysis of the deposited data

How the results depend on the processing

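With edgeR 0 of the 10 members passed an adjusted p of 0.05 under every scaling, filter and left-out library, and with limma-voom likewise, while DESeq2 called 1, POU3F2. At an unadjusted p, 1 member was called, and 1 to 2 with each library left out, the second being SOX10 without FNI+I-125 replicate 3. Members lower without overlap numbered 2 to 5 with each library left out. Without FNI+I-125 replicate 2 they were SOX10, EGR2, POU3F1, POU3F2 and NAB2. Members higher without overlap numbered 0 to 1 (JUN without FNI replicate 1, ZEB2 without FNI replicate 2 or FNI+I-125 replicate 3), and 1, ZEB2, with library size only. With a library left out, the share of all tested genes without overlap was not computed. Fewer libraries separate more easily, so these counts do not set the members apart from other genes. The balance stayed between -1.15 and -0.24 with each library left out. With each library left out, the log2 fold change of NAB1 ran from -0.13 to 0.0024 (without FNI+I-125 replicate 2), and that of SOX2 from -1.15 to 0.58. Directions turned in these fits for NAB1 and SOX2 (-0.37 without FNI replicate 3, -1.15 without FNI+I-125 replicate 3, -0.28 with the replicate block).

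Deviations of same-numbered libraries from their group means had Pearson's r of 0.05, -0.23 and -0.19 across genes, which are not independent replicates. Between differently numbered libraries r ran from -0.31 to 0.35. These values gave no sign that the numbers pair the animals, but so few libraries cannot settle it. With the replicate block, 1 member was called at an unadjusted p under 0.05, and 6 myelin targets, beside 2220 of all 14003 tested genes. With each library left out, 1 to 21 myelin targets had such a p, beside 9.70% to 15.5% of the genes tested in these fits. Of the AP-1 partners, 0 to 2 did with each library left out and 0 with limma-voom. The cause of these changes was not tested. Scalings moved the median of all genes by at most 0.04 on the log2 scale. At 13 to 179 counts, POU3F2 is the member that depth limits most.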

Other observations

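The values of marker lists of other cells are given without tests of the lists, and several rest on 1 library. T cell markers were higher for 9 of 9 genes, with a median log2 fold change of 1.47, which was 0.87 without FNI+I-125 replicate 2 and 2.26 without FNI replicate 2. Neutrophil markers were higher for 4 of 4 (median 3.52), but the median was 0.68 without FNI+I-125 replicate 1. Skeletal muscle markers were higher for 13 of 13 (6.07) through FNI+I-125 replicates 1 and 2, since FNI+I-125 replicate 3, at 57.9 CPM, lay below every FNI library. The perineurial list was lower for 5 of 5 genes (-1.41), led in level by ITGB4 and TJP1, and the adipocyte list for 4 of 4 (-1.55), led by ADIPOQ. Without FNI replicate 3 these medians were -0.62 and -0.66, and without FNI+I-125 replicate 1 the perineurial list was lower for 4 of 5. Schwann cell markers were lower for 12 of 12 genes (-0.49), but without FNI+I-125 replicate 1 for 8 of 12, with a median of -0.11, and without FNI replicate 3 or FNI+I-125 replicate 3 the medians were -0.76 and -1.02. Without FNI replicate 1 the median was -0.27. Of these markers, S100B had an unadjusted p under 0.05 in edgeR's test and did not overlap between the groups. Keratinocyte markers were higher for 5 of 5 (0.58), but for 0 of 5 (-3.26) without FNI+I-125 replicate 3 and 2 of 6 (-0.05) without FNI replicate 3, and with each library left out the median ran from -3.26 to 2.59 (without FNI replicate 1).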
